A study of Homo sapiens with 6 samples.

Results

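The metallothionein genes were followed in T3M4 cells, a long-established human line from pancreatic ductal adenocarcinoma, carrying either a control guide RNA or one against METTL13. The genes were taken by symbol, with no filter on their values. The list of 6 was chosen with earlier results of these data known: MT1E, MT1F, MT1G, MT1M, MT1X and MT2A. Of these, 4 have a row among the 16617 genes of the authors' deposited table: MT1E, MT1F, MT1X and MT2A. MT1G and MT1M are not analysed here, and the table gave no row for any of 15 further metallothionein genes and pseudogenes that were looked up. There were 6 RNA-seq libraries. In 3, called sgControl, the cells carried a control guide and a genotype labelled WT, and in the other 3, called sgMETTL13, they carried a guide against METTL13 and a genotype labelled METTL13 knockdown. Both groups grew in DMEM with fetal bovine serum, penicillin and streptomycin. The sources used here do not give added agents, time points or whether the lines are single clones. Nothing in the labels says that the libraries of a group came from separate cultures, so the p-values measure the spread between these libraries, which may be technical.

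Metallothioneins are very small, cysteine-rich proteins whose thiols bind zinc, copper and cadmium. They buffer free zinc in the cytosol and take up toxic metals and oxidants. When zinc rises, the zinc-finger transcription factor MTF1 binds metal response elements in their promoters, and glucocorticoids and oxidative stress can also induce them. The exocrine pancreas is a main route by which the body loses zinc, and metallothionein in the gland is known to follow zinc supply. METTL13 methylates eEF1A, the elongation factor that brings aminoacyl-tRNAs to the ribosome, and the study compares transcript abundance between cells with and without that knockdown.

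The table holds group averages and the authors' own comparison, so no value of a single library is analysed here. The total of the average estimated reads was 15240866 for an sgControl library and 15247500 for an sgMETTL13 library. For METTL13 itself the authors' deposited table lists mean TPM values (reads per transcript length, scaled to one total per library) of 39.9 and 5.63, and a log2 fold change of -2.78 (adjusted p = 2.5e-127). The labelled cell type was checked against its markers. All 8 ductal and epithelial markers were present, led by KRT19 at 2107 and KRT8 at 1308 mean TPM in sgControl in the authors' deposited table, and their sum was 4842 TPM. The keratins KRT17, KRT6A and KRT5, named after their values were seen, are on none of the marker lists and had more reads than KRT19. Their means of the 2 group averages were 147837, 54675 and 47051 reads, against 22820 for KRT19. The 5 lists of markers of other cells summed to at most 17.1 TPM in sgControl. That highest sum was of the fibroblast list. In the authors' deposited table it was led by COL1A1 at 14.0 TPM (575.7 average reads) and LUM at 2.87 TPM in sgControl. PRSS1, the acinar trypsinogen gene, was at 0.81 TPM and the acinar carboxypeptidase gene CPA1 listed at 0 in the authors' deposited table. SOX9 and MUC1 were the 2 ductal markers called (adjusted p under 0.05), and the authors' deposited table has both lower in sgMETTL13, by -0.28 and -0.46 on the log2 scale.

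The measured metallothioneins are near copies of each other. By GENCODE 29 (GRCh38), all 6 listed genes lie within 76.0 kb of chromosome 16 (bases 56608199 to 56684196), and each transcript used here has 3 exons. MT2A spans 56608199 to 56609497, MT1E 56625475 to 56627112, MT1F 56657694 to 56660698 and MT1X 56682424 to 56684196, all on the plus strand. Each of these 4 genes has a coding sequence of 186 bases including the stop codon, and 20 of its 61 amino acid codons encode cysteine. Their coding sequences are shown because they set how well a read can be given to a single gene. Each is written 5′ to 3′ as it stands in the GENCODE 29 transcript, and capitals in the MT1 genes mark bases that differ from MT2A at the same position.
MT2A: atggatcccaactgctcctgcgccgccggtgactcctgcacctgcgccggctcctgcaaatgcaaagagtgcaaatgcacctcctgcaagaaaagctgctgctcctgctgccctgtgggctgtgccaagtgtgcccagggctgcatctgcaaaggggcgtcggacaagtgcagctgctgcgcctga
MT1X: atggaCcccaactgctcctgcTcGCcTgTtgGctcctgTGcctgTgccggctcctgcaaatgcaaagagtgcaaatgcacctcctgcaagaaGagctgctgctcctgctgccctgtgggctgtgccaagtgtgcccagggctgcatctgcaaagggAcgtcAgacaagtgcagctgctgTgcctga
MT1E: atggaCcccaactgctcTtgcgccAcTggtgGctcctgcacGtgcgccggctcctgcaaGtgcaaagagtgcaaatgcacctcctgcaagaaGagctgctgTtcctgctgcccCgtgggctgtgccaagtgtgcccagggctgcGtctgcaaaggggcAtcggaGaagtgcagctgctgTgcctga
MT1F: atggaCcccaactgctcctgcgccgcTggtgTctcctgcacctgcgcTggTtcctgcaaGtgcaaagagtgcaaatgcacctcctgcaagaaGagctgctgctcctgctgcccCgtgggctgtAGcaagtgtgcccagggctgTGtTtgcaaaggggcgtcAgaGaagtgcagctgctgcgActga

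Identity to MT2A was 92.5% for MT1X, 92.5% for MT1E and 91.4% for MT1F, or 14, 14 and 16 differing bases. The longest stretch that is identical between 2 of these 4 coding sequences is 63 bases, between MT1X and MT2A, while MT2A shares at most 32 bases in a row with MT1E or MT1F. MT1G, which has no row here, shares a longer run of 96 bases with MT1X, at a lower identity of 89.9%.

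A read cannot be given to a single gene by its sequence where its whole length is identical in another gene. Exact windows of each transcript were therefore looked up in all GENCODE 29 transcripts on both strands. Windows that fit another copy with mismatches were not counted, so the shares are lower limits of the ambiguity. At 50 bases, 4.88% of MT2A windows, 15.96% of MT1X windows, 5.34% of MT1E windows and 3.59% of MT1F windows also occur in another metallothionein gene or pseudogene. At 100 bases no window of the 4 genes does. The transcripts searched were 786 bases long for MT2A, 450 for MT1X, 704 for MT1E and 690 for MT1F. A longer transcript adds windows outside the similar coding sequence, which lowers its share. The shares of different genes are therefore not on the same footing, and other transcripts of these genes were not searched. The sources used here do not give the read length. Of the 4, only MT1X shares windows of 50 bases or longer with another GENCODE gene, AC026461.1: 29.2% at 50 bases and 19.1% at 100 bases. At 25 bases all 4 share windows with it, 33.3% for MT1X, 3.02% for MT2A, 1.62% for MT1E and 1.65% for MT1F. AC026461.1 was not analysed here.

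**Figure D1:**
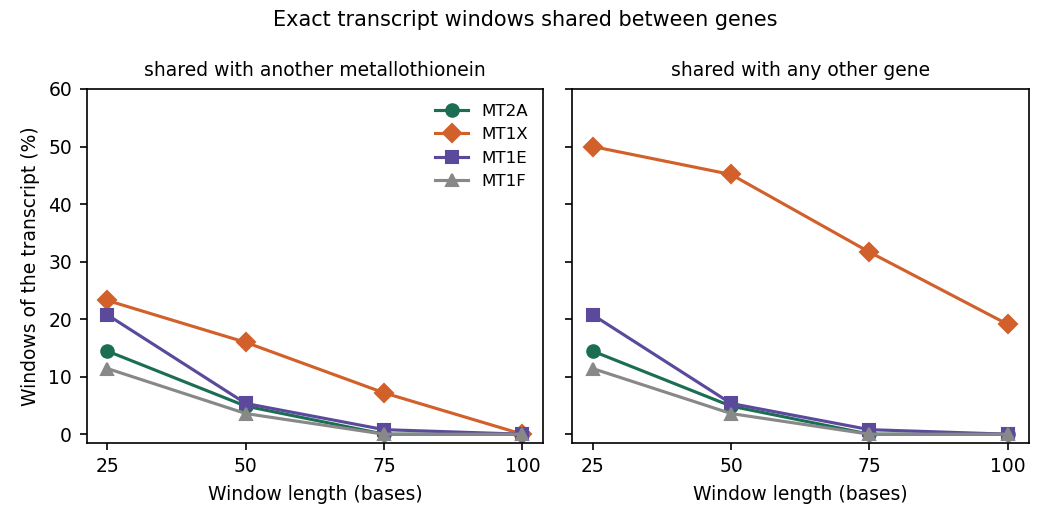
Percent of exact windows of the MT2A, MT1X, MT1E and MT1F transcripts (y axis) that also occur in another metallothionein (left) or in any other gene (right), against window length in bases (x axis). Sharing with other metallothioneins reaches 0 at 100 bases for all 4 genes, while MT1X keeps 19.1% through the gene AC026461.1.

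In the authors' deposited table the averages of these 4 genes are multiples of 1 read over 3 libraries. Multiplied by 3, they give 18796 and 18768 reads for MT2A, 1471 and 1281 for MT1X, 487 and 500 for MT1E, and 11 and 17 for MT1F, in sgControl and sgMETTL13. Of all genes, 78.6% give whole sums in both groups (tolerance 0.005), and the other 21.4% carry fractions, as an estimator gives them when it divides reads between genes. No fraction of a read is visible in the metallothionein sums. Whether reads that fit 2 copies were left out or given whole to 1 of them was not tested.

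The promoters of the most abundant members are shown because the regulators described further on act there. MT2A and MT1X were the 2 of 6 genes matched in the RefSeq promoter table (GRCh38.p14), and MT1E, MT1F, MT1G and MT1M were not matched. The 250 bases before the annotated start are printed 5′ to 3′ on the plus strand, for MT2A chr16:56608334-56608583 and for MT1X chr16:56682220-56682469. Both RefSeq starts lie inside the GENCODE spans given above, which begin further upstream. Capitals mark the core of the metal response element, searched as TGCACNC or TGCGCNC on both strands.
MT2A promoter: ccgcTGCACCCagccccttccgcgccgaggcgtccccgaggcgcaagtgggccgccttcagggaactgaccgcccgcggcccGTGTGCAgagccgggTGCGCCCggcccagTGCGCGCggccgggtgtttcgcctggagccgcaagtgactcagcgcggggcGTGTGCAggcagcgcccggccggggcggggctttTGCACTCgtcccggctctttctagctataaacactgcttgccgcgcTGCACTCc
MT1X promoter: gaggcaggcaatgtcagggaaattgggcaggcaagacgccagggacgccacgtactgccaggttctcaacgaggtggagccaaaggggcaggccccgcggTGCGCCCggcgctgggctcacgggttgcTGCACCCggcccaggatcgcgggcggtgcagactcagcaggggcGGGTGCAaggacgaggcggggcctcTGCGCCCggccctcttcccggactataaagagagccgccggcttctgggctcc

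In the window from 250 bases before to 50 bases after the start, the core occurs 8 times in MT2A and 4 times in MT1X. The last of the MT2A matches lies 30 to 36 bases after the start and is not printed. Of 13104 promoters of genes in the table, 37.3% hold at least 1 such core, 100 hold at least 4 (0.76%) and 3 hold at least 8 (0.02%). Each of the MT2A and MT1X promoters also holds 1 TATA box (TATAAA, found in 7.3% of promoters), 2 Sp1 boxes (GGGCGG, 65.2%) and 1 core of the antioxidant response element (TGACNNNGC, 14.5%). In MT1X the Sp1 box from -82 to -77 overlaps the metal response element from -78 to -72. The glucocorticoid receptor hexamer AGAACA, present in 9.8% of promoters, was not found in either window. Only this exact hexamer was searched, and no base more than 250 before the start. The miss therefore says nothing about receptor sites with other letters or further upstream. A match describes letters and not a bound site.

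**Figure D2:**
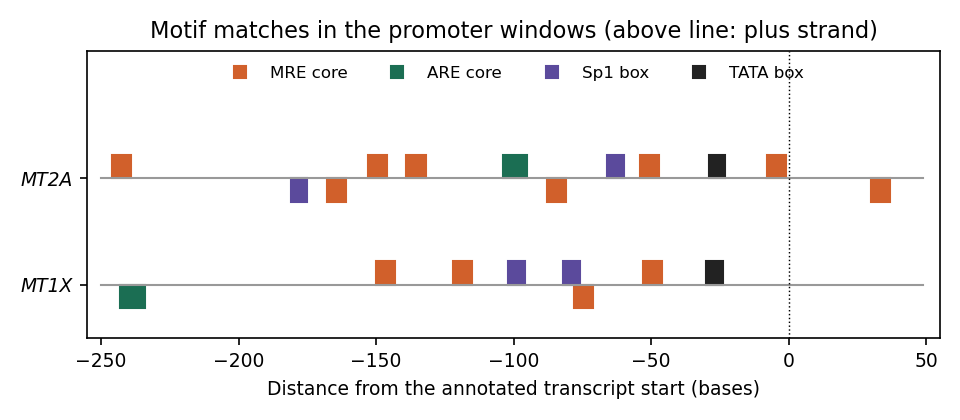
Matches of 4 motifs in the MT2A and MT1X promoter windows, by distance in bases from the annotated transcript start (x axis, dotted line at 0), with plus-strand matches above each line and minus-strand matches below it. MT2A carries 8 metal response element cores (MRE core) and MT1X 4, and both have a TATA box shortly before the start.

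MT2A was by far the most abundant metallothionein in these cells. The authors' deposited table puts its mean TPM, a level per transcript length, at 2176 in sgControl and 2148 in sgMETTL13, the 66th and 62nd highest of 16617 genes. MT1X followed with 196 mean TPM in sgControl and, again from the authors' deposited table, 169 in sgMETTL13. MT1E stood at 49.3 and 49.8 mean TPM in the authors' deposited table, and MT1F, close to the floor, at 1.33 and 2.02. The order MT2A, MT1X, MT1E, MT1F was the same in both groups. In sgControl each step down was 11.1-fold, 3.97-fold and 37.1-fold in TPM, and in sgMETTL13 it was 12.7-fold, 3.38-fold and 24.7-fold. The spread of a level over libraries is not analysed here, so the steps carry no error or test. In bulk RNA, fewer cells that express a gene and less of its RNA per cell cannot be told apart.

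MT2A made up 89.8% of the summed TPM of the 4 genes in sgControl and 90.7% in sgMETTL13. MT1X made up 8.08% and 7.12%, and MT1E 2.03% and 2.10%. The 4 genes together came to 2423 TPM in sgControl and 2368 in sgMETTL13, or 0.242% and 0.237% of all TPM. The ratio of these sums was 0.978, a log2 value of -0.033, with no test. Its sign depends on scaling, since summed reads scaled as the deposited fold changes are give 0.038.

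**Figure D3:**
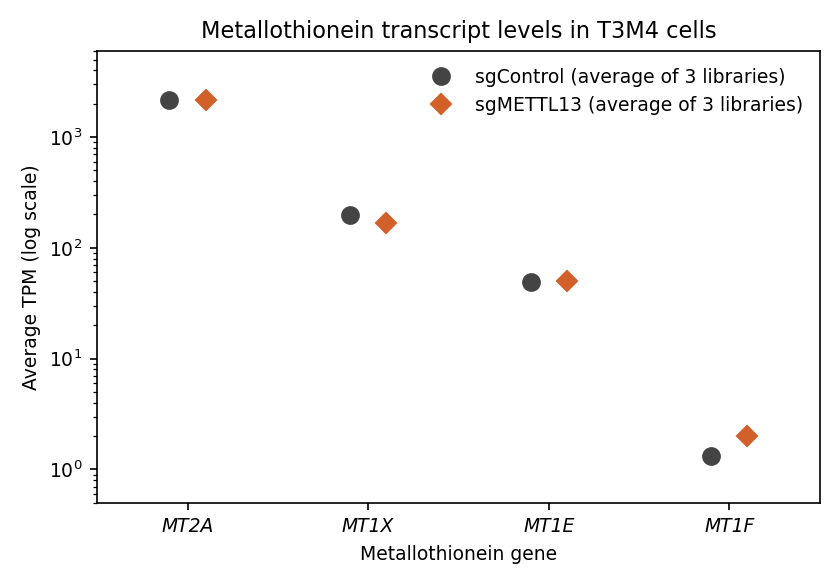
Average TPM (y axis, log scale) of MT2A, MT1X, MT1E and MT1F (x axis) in sgControl (circles) and sgMETTL13 (diamonds), each symbol being the authors' average of 3 libraries. The groups lie next to each other within each gene, while genes are spread from 1.33 to 2176 TPM in sgControl.

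TPM divides reads by transcript length, and these transcripts are short. The effective length implied by the deposited read count and FPKM (fragments per transcript length and sequencing depth) was 369.6 bases for MT2A, 321 for MT1X, 423 for MT1E and 356 for MT1F in sgControl. The median over 12685 genes with at least 10 reads in sgControl was 2956 bases, and 0.28% of these genes were shorter than MT2A. Against the 6265 average reads of MT2A in sgControl in the authors' deposited table, the 41 other genes within 1.25 times of its TPM had a median of 18653 reads. In rank by read count MT2A was 367th in sgControl, against 66th by TPM.

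No metallothionein passed the test between sgMETTL13 and sgControl. At an adjusted p under 0.05, the authors' deposited table calls 3.80% of all genes (2.73% higher and 1.08% lower in sgMETTL13), and 0 of these 4, a count near that share. None of the 4 had an unadjusted p under 0.05 in the authors' deposited table, where 2068 of 16617 genes did. No other test was run on values of libraries. The median log2 fold change of the 4 was 0.070, beside 0.0014 over all genes. Each value is given with an implied standard error, taken from the deposited log2 fold change and the normal quantile that its p-value stands for, and with the 95% interval that follows from it.

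MT2A went from an average of 6265 to 6256 reads in the authors' deposited table. Its log2 fold change there was 0.05 (implied standard error 0.082, interval -0.11 to 0.21, adjusted p = 0.968). The sign of this value depends on scaling, since the ratio of average reads gave -0.0022 and the ratio of average TPM -0.019. With a trend of fold change in GC content and length removed, it was 0.0042. The deposited fold changes exceed the ratio of average reads by a median of 0.0516 among genes with 205 or more mean reads, the median. In fold terms the interval of MT2A runs from 0.927 to 1.16. A change of 1.19-fold would have been needed at this standard error to reach the largest p that was called, so smaller shifts were not detectable.

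MT1X was the only one of the 4 with a negative fold change in the authors' deposited table, with averages of 490.3 and 427 reads, and did not pass the test. Its log2 fold change there was -0.15 (implied standard error 0.109, interval -0.36 to 0.07, adjusted p = 0.722). This value kept its sign as the ratio of average reads (-0.20) and of average TPM (-0.22), and with that trend removed (-0.15). Counting error alone, from 1471 and 1281 reads, gives an interval of the read ratio from 0.807 to 0.939 (exact binomial, 95%), below 1. The implied standard error, which also carries the spread between libraries, was 1.97 times the counting error. Reads of MT1X can also fit AC026461.1, as given above, and the part of that sharing in the value was not tested.

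In the authors' deposited table MT1E averaged 162.3 reads in sgControl and 166.7 in sgMETTL13. Its log2 fold change there was 0.09 (implied standard error 0.158, interval -0.22 to 0.40, adjusted p = 0.968), and a 1.41-fold change would have been needed for a call. For MT1E the ratio of average reads gave 0.038, the ratio of average TPM 0.017, and the deposited value with a trend of fold change in GC content and length removed 0.015. MT1F averaged 3.67 and 5.67 reads in the authors' deposited table. Its log2 fold change there was 0.68 (implied standard error 0.943, interval -1.17 to 2.53, adjusted p = 0.951). The ratio of its 17 to 11 reads has a counting interval from 0.683 to 3.65 (exact binomial, 95%), so this difference was not resolved at this depth. A 7.65-fold change would have been needed for a call of MT1F. Counting intervals cover counting error only. Whether the 4 genes differ from each other in response was not tested, and their intervals overlap.

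**Figure D4:**
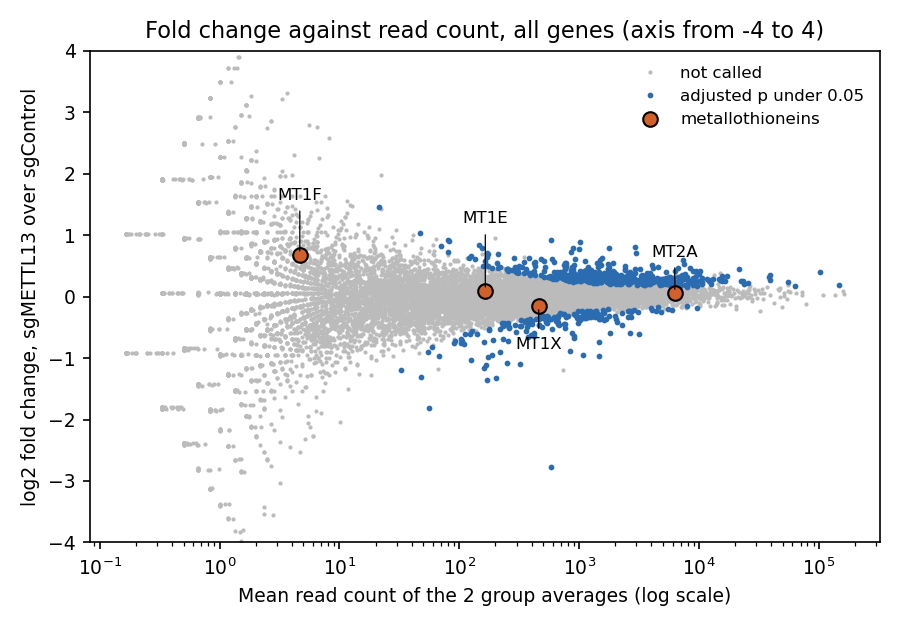
Deposited log2 fold change (y axis, sgMETTL13 over sgControl) against the mean of the 2 average read counts (x axis, log scale) for all genes, with called genes in blue and the 4 metallothioneins in orange. The metallothioneins lie among uncalled genes of their own read count; 16 genes beyond 4 in size are outside the axis.

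For 3 of the genes the implied standard error lay near that of genes of like read count. It comes from the deposited p-value, so the spread of a gene between libraries was not seen here. Implied standard errors of MT1E, MT1F and MT1X were 0.995, 1.03 and 1.04 times the median of genes within 1.25 times of their mean reads. For MT2A it was 1.39 times the median of 247 such genes. The standard error of MT2A was also 5.50 times its counting error, beside a median of 3.91 among those genes. Among genes of like read count, 70.4% had a larger log2 fold change in size than MT2A, 63.96% than MT1E, 32.9% than MT1F and 28.5% than MT1X.

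Of the factors that act on metallothionein promoters, 1 of 8 was higher and none lower, where 2.73% of all genes were higher and 1.08% lower. The gene called was NR3C1, the glucocorticoid receptor, whose mean TPM went from 25.5 to 29.2 in the authors' deposited table (log2 fold change 0.30, interval 0.16 to 0.44, adjusted p = 0.00121). MTF1, the metal sensor named here for its role after its value was seen, averaged 15.4 and 14.5 TPM in the authors' deposited table. Its log2 fold change there was 0.02 (interval -0.17 to 0.21, adjusted p = 0.972). USF2 (0.08), SP1 (-0.07) and NFE2L2, the gene of NRF2 (0.05), are uncalled in the authors' deposited table, with their log2 fold changes in brackets, and USF2 turned to -0.013 with the same trend removed. The median over the 8 genes was -0.0037, beside 0.0014 over all genes. The median of their mean reads was 2011, beside 205 over all genes.

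Among other genes that cadmium or excess zinc induce, some were higher in sgMETTL13 while the metallothioneins were not called. Of 12 such genes 4 were higher in sgMETTL13 in the authors' deposited table and none lower, against 2.73% and 1.08% of all genes. Their median log2 fold change was 0.083. The median of their mean reads was 3944, beside 205 over all genes, so the share of all genes is not matched for read depth. Of the 12, 8 had an unadjusted p under 0.05: the 4 called genes and GCLM, all higher, and HSPA1A, HSPA1B and HSPH1, all lower. HMOX1, the heme oxygenase, rose by 0.72 (adjusted p = 6.6e-25) and TXNRD1, the cytosolic thioredoxin reductase, by 0.24 in the authors' deposited table. SLC7A11, the cystine carrier, rose by 0.32 and SRXN1, the sulfiredoxin, by 0.23 in the authors' deposited table. These 4 are also known targets of NRF2. The interval of HMOX1, from 0.59 to 0.84, lies above those of MT2A, MT1X and MT1E, and the difference between genes was not tested. SLC30A1, the zinc exporter that MTF1 induces together with metallothioneins, is listed at -0.02 in the authors' deposited table (interval -0.21 to 0.17) and was named for that role after its value was seen. The heat shock genes HSPA1A (-0.15), HSPA1B (-0.16) and HSPH1 (-0.13), named after their values were seen, were not called in the authors' deposited table. HSPA1A and HSPA1B are near-identical copies with fractional read counts, so the division of reads between them is uncertain. After removal of that GC and length trend, 5 of the 12 were higher and 2 lower, the added ones being GCLM, HSPA1A and HSPA1B. The same step took all calls of the table from 453 higher and 179 lower to 276 and 189.

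**Figure D5:**
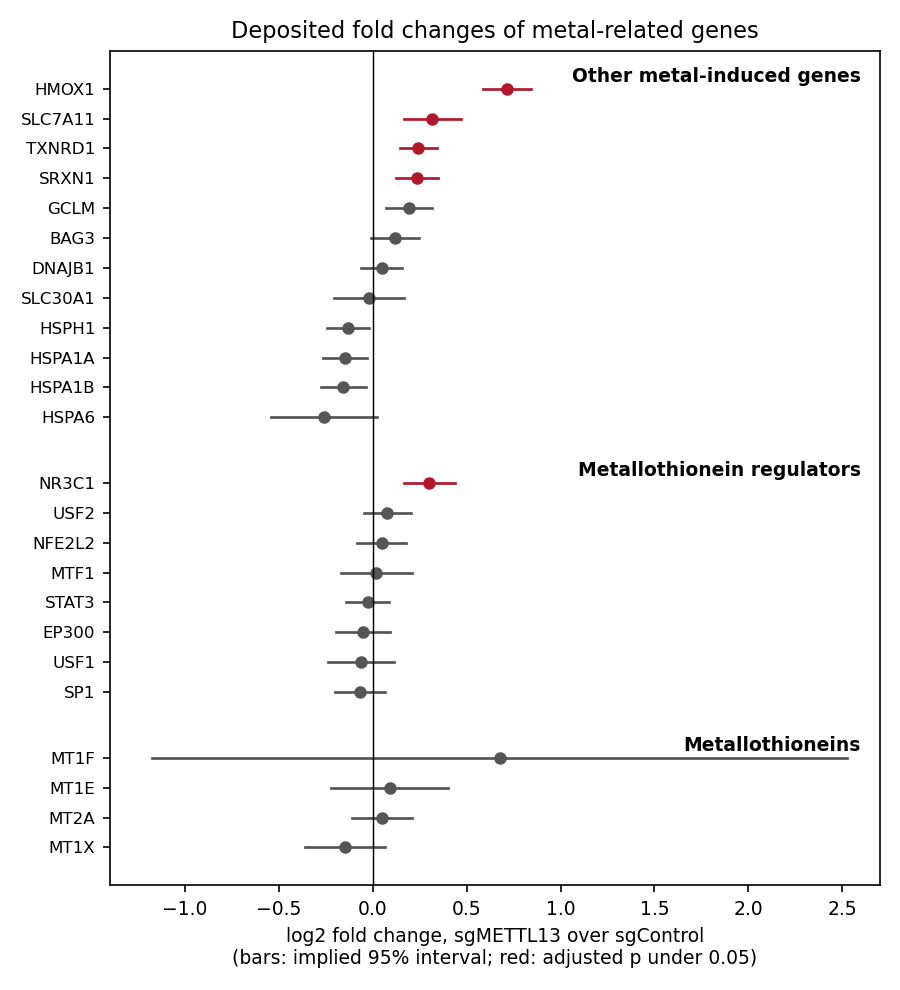
Deposited log2 fold change (x axis, sgMETTL13 over sgControl) with implied 95% interval (bars) of the 4 metallothioneins, 8 regulators and 12 other metal-induced genes, with genes called at an adjusted p under 0.05 in red. The 4 metallothionein intervals span 0, while HMOX1 at 0.72 and NR3C1 at 0.30 lie above it.

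The zinc and copper handling lists are short beside the 3.80% of all genes called, so counts of 0 lie near that share and are not a result about these genes. The authors' deposited table calls 0 of 9 measured zinc exporters of the SLC30 family, at a median log2 fold change of -0.10 and none with an unadjusted p under 0.05. The exporters with the smallest adjusted p in the authors' deposited table, SLC30A9, SLC30A3, SLC30A6 and SLC30A7, had log2 fold changes of -0.14, -0.58, -0.10 and 0.08. With the trend removed, SLC30A9 was at -0.074 and SLC30A6 at -0.041, closer to no change. SLC30A3 (-0.67) and SLC30A7 (0.10) were then larger in size. Of 12 measured SLC39 importers 0 were called, with a median of 0.027. SLC39A4, the zinc importer of the gut, went from 192 to 205 mean TPM in the authors' deposited table (log2 fold change 0.17, adjusted p = 0.297), and SLC39A13 had a log2 fold change of 0.19 (adjusted p = 0.398). These 2 had an unadjusted p under 0.05. With the trend removed, SLC39A4 was at 0.057 and SLC39A13 at 0.062. Of 18 copper genes 0 were called, with a median of -0.0062 and 1 unadjusted p under 0.05. That was the metalloreductase STEAP3 (-0.21 in the authors' deposited table, and -0.28 with the trend removed).

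Genes that glucocorticoids induce went both ways. Of 12 measured, 3 were higher and 1 lower in the authors' deposited table, against 2.73% and 1.08% of all genes. DUSP1, a MAP kinase phosphatase, rose by 0.61, TSC22D3 (GILZ) by 0.41 and the EGF receptor inhibitor ERRFI1 by 0.32, while CRISPLD2 fell by 0.90 in the authors' deposited table, from 72.7 to 37.7 reads. CRISPLD2 was not called at an adjusted p under 0.01. FKBP5, the classical glucocorticoid-induced gene, named after its value was seen, went from 3.44 to 2.47 TPM in the authors' deposited table and was not called (log2 fold change -0.41, adjusted p = 0.437). The median was 0.26 in this list, which holds genes with under 1 read per library, beside 0.0014 over all genes.

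Within 500 kb of the outer ends of the cluster lie 12 genes of the table, with a median log2 fold change of 0.036. Of these 0 were called, near the 3.80% called among all genes. At an unadjusted p under 0.05 there was 1, beside 2068 of all 16617 genes. Neither count is a result about these neighbours. BBS2, the nearest on one side at 87.9 kb, is at 0.15 in the authors' deposited table (log2 scale, interval -0.17 to 0.46), and the nucleoporin gene NUP93, 45.9 kb from the other end, at -0.03 (interval -0.19 to 0.13, and -0.071 with the trend removed). HERPUD1, an endoplasmic reticulum stress gene, had the smallest adjusted p of the 12 in the authors' deposited table (0.231, at a log2 fold change of 0.26).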

How the data were processed

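Cells were lysed in TRIzol and libraries were made by a sequencing company, per the labels' protocols. The submitters' processing notes name RSEM 1.2.12, DESeq2, Bowtie2 2.2.5 and HISAT2 2.0.4 as tools, with the builds hg38 and GRCh38.p12, and give no role or order of the tools. Columns named KD and WT belong to sgMETTL13 and sgControl per the labels. Per the file headers the deposited table gives the authors' mean over each group in 3 units, TPM, FPKM and read counts (estimated counts), and the authors' log2 ratio, its p-value and its q-value, here called the adjusted p. The table holds no values of libraries, so the authors' comparison was used as the test and the depth of single libraries is unknown.

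The members and lists were chosen with earlier results of these data known. Named genes are all members, in each list every called gene and up to 4 of lowest adjusted p, and the nearest gene on each side of the cluster; others are said to be so. A gene is called at an adjusted p under 0.05. Implied standard errors assume a normal test. Transcripts, positions, GC content and length come from GENCODE 29, using for sequences the coding transcript with a RefSeq match and most cysteine codons. The trend in GC content and length was fitted with splines (4 degrees of freedom each, weights from the implied standard error). Implied standard errors, adjusted p and trend removal were tried on simulated data, without a trend or with one in GC content alone. Noise there was drawn from the implied standard errors, so their recovery was fixed in advance. A trend in length and the sequence searches were not simulated. Tables were handled with pandas 2.3.3 and numpy 2.4.6 in Python 3.11.15, statistics with scipy 1.17.1 and patsy 1.0.2, sequences with Biopython 1.88 and figures with matplotlib 3.10.9.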

Additional observations from a re-analysis of the deposited data

How the results depend on the processing

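No paired analysis was possible because the table holds group averages, and for the same reason no library could be left out. The call of 0 of 4 metallothioneins held under thresholds of 0.01 and 0.1 on the adjusted p, a recomputed Benjamini-Hochberg adjustment, filters at 10 mean reads (which leaves out MT1F, at 4.67) and at the median of 205 (which also leaves out MT1E, at 164.5), centred fold changes, and removal of the trend in GC content and length. MT2A, at 0.05 as deposited, changed sign as the ratio of average reads (-0.0022), of average TPM (-0.019) and of average TPM plus 1 (-0.019). The summed level, at -0.033 on the log2 scale, moved to 0.038 when summed reads were scaled as the deposited fold changes are, an alternative added after the data were seen. At a threshold of 0.01 the table had 409 calls in place of 632. With the trend removed, 7 genes of the metal-induced list were called in place of 4, and USF2 turned to -0.013. The cause of these shifts was not tested. Read depth limits MT1F most.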
